A study of Mus musculus with 24 samples.

Results

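The genes described here are 33 genes of the endoplasmic reticulum (ER) stress response and of the ATF4 response, out of 18193 genes measured in mouse liver. They were chosen from what is known of the unfolded protein response, of protein folding in the ER, of ER-associated degradation and of ATF4 targets. Earlier results of these data were known when they were chosen. Each gene was read from its brightest probe set that names a single gene, by the mean over all 24 arrays. Every value is a log2 signal, so a difference of 1 on this scale is a 2-fold change.

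The livers came from male C57BL6/J mice that were 8 weeks old at the start and received a Western diet, a high-fat diet with 6% sucrose in the drinking water, for 7 weeks. Over that time all mice were injected every week with 1 mg per kg of a chemically modified siRNA. It was packed in lipid nanoparticles that deliver it mainly to the liver. The siRNA was siControl, a scrambled sequence, or 1 of the 2 siRNAs siKeap1-1 and siKeap1-2, which target Keap1, the protein that holds the transcription factor Nrf2 inactive. Each group had 8 mice with 1 Affymetrix array per mouse. By the study's methods 4 mice of each group were fed and 4 fasted, and the sample labels do not say which. The groups are thus a model of lowered, not absent, Keap1 in the liver of adult male mice on a Western diet. The lipid nanoparticle and the diet were shared by the controls. The study also reports lower Keap1 mRNA in the kidney with both Keap1 siRNAs. Bulk liver was measured, so fewer cells of a type and less RNA per cell cannot be told apart.

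Proteins that leave the cell or sit in its membranes are folded in the ER, and hepatocytes secrete them in bulk. When unfolded protein accumulates there, the sensors IRE1 (Ern1), PERK (Eif2ak3) and ATF6 (Atf6) signal to the nucleus. IRE1 splices the mRNA of Xbp1 and ATF6 is cut to release a transcription factor, and both raise chaperones, disulfide isomerases and the machinery that sends misfolded proteins to the proteasome. PERK slows translation and favours ATF4, which raises genes of amino acid supply and of recovery or cell death, and ATF4 is also raised by other kinases without ER stress. Splicing of Xbp1, cleavage of ATF6 and translation of Atf4 are not visible in the signal of a probe set on these arrays.

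The promoters of these genes show the elements through which the branches are known to act. RefSeq windows of 300 bases (GRCm38.p6), from 250 bases before to 50 after the start of the transcript, were at hand for 29 of the 33 genes. Hyou1, Manf, Derl1 and Atf6 have no window here. Both strands were searched for 5 motifs. The ER stress response element, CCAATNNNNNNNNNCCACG, is bound by ATF6 together with NF-Y. It occurred in the windows of 9 of the 29 genes (31%) and in those of 0.137% of all 27025 genes with a window. These are all 10 copies, written along the strand of the element, with the fixed bases in capitals and with positions counted from the transcript start. They are shown because chaperones, an isomerase and degradation genes with very different values in the livers share them.
Hspa5, chr2:34772025-34772043, bases -65 to -47: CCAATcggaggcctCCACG
Calr, chr8:84847075-84847093, bases -162 to -144: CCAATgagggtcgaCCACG
Derl3, chr10:75893242-75893260, bases -156 to -138: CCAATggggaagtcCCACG
Hsp90b1, chr10:86705638-86705656, bases -212 to -194: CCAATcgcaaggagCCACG
Hsp90b1, chr10:86705533-86705551, bases -107 to -89: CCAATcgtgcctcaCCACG
Canx, chr11:50325800-50325818, bases -145 to -127: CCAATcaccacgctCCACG
Pdia6, chr12:17266491-17266509, bases -98 to -80: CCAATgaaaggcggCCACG
Dnajc3, chr14:118937827-118937845, bases -105 to -87: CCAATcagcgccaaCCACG
Creld2, chr15:88819520-88819538, bases -126 to -108: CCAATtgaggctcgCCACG
Syvn1, chr19:6046532-6046550, bases -44 to -26: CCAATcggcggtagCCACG
Hsp90b1, the ER member of the HSP90 family, held 2 copies. The share of carriers is a property of the list, which was drawn from genes known for this response, and is no result of the siRNAs.

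A second form of the element, ATTGGNCCACG, was found in the windows of 2 of the 29 genes (6.9%) and of 0.0444% of all genes.
Herpud1, chr8:94386377-94386387, bases -52 to -42: ATTGGgCCACG
Dnajb11, chr16:22857852-22857862, bases 8 to 18: ATTGGcCCACG
The composite site of ATF4 with a C/EBP partner, searched as TGATGNAA, was found in 5 of the 29 genes (17.2%) and in 4.51% of all genes. Of the 5, Atf3, Trib3, Asns and Chac1 are classical genes of the ATF4 branch, and Herpud1 belongs to the degradation machinery.
Atf3, chr1:191183436-191183443, bases -110 to -103: TGATGcAA
Chac1, chr2:119351049-119351056, bases -193 to -186: TGATGcAA
Trib3, chr2:152344039-152344046, bases 15 to 22: TGATGtAA
Asns, chr6:7693225-7693232, bases -23 to -16: TGATGaAA
Herpud1, chr8:94386317-94386324, bases -112 to -105: TGATGcAA
The core shared by XBP1 and ATF6 sites, TGACGTGG, matched in none of the 29 windows and in 0.714% of all genes. The core of the antioxidant response element, TGACNNNGC, through which Nrf2 acts, matched in 8 of the 29 genes (27.6%) and in 14% of all genes. Those 8 were Sdf2l1, Calr, Pdia3, Herpud1, Ern1, Asns, Sesn2 and Ppp1r15a. A match of letters is a description and does not show a bound site. A motif of so few fixed letters is common, and the composite site and the antioxidant core can overlap other motifs.

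The whole windows of 5 genes that changed in the livers and hold a match are given next. They are written in the direction of transcription, with the fixed bases of each match in capitals. Of the other genes that changed, Manf has no window, and the window of Eif2ak3 held no match to any of the motifs. Derl3 and Pdia6 carry the ER stress response element, Sdf2l1 the antioxidant core, and Trib3 and Atf3 the composite site.
Derl3, chr10:75893148-75893447, plus strand: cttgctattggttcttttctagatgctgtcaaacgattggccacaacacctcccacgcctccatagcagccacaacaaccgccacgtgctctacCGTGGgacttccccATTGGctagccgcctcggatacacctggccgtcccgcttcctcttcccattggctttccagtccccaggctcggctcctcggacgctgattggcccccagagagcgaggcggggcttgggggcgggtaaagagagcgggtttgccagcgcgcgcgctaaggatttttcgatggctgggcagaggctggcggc
Pdia6, chr12:17266339-17266638, plus strand: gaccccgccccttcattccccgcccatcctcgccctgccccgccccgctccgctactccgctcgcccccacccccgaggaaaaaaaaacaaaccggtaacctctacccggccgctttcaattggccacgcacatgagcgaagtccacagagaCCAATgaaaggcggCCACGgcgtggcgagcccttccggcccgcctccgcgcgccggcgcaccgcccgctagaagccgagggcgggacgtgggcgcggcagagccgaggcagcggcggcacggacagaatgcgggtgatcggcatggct
Sdf2l1, chr16:17132334-17132633, minus strand: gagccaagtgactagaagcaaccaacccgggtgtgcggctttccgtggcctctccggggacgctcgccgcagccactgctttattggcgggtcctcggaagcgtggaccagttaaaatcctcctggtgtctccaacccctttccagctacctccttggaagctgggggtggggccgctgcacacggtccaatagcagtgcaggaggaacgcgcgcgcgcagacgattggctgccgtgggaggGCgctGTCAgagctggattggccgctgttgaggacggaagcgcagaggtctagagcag
Trib3, chr2:152344011-152344310, minus strand: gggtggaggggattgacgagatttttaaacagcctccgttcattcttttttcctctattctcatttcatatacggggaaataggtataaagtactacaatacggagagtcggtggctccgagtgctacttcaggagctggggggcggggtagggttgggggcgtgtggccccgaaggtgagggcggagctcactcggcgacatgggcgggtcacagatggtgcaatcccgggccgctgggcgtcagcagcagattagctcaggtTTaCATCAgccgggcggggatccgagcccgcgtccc
Atf3, chr1:191183284-191183583, minus strand: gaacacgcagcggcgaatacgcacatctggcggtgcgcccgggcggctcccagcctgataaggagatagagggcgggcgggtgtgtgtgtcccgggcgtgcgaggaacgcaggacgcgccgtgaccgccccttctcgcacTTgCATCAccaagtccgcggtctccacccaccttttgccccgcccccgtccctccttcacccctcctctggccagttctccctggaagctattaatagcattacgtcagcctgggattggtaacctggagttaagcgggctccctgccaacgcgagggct

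Before the values, the controls need a remark. The probe set for 18S ribosomal RNA read 10.34 to 10.77 in siControl replicates 1 to 3, 8.86 to 9.54 in siControl replicates 4 to 8 and 10.17 to 11.43 in the 16 mice given a Keap1 siRNA. The 3′ minus 5′ difference of Gapdh, a measure of RNA integrity and labelling, was 1.33 to 1.47 in siControl replicates 4 to 8 and 1.06 to 1.28 in all other mice. So 5 of the 8 controls stood apart, and the called genes of the list are also given against the other 3 controls alone. Keap1 fell by 2.13 ± 0.11 (SE) on the log2 scale with siKeap1-1 and fell by 1.36 ± 0.11 with siKeap1-2. Nqo1, a classical Nrf2 target, rose by 2.22 ± 0.10 and by 1.91 ± 0.10 (limma, adjusted p = 8.78e-14 and 3.01e-12). The hepatocyte markers Alb and Ttr averaged 14.80 and 14.95 in siControl livers, and none of 10 hepatocyte markers was called in a comparison. Their mean was 14.42 to 14.56 over all mice, and whether probe sets this bright can show a change was not tested.

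With siKeap1-1, 4 of the 33 genes rose and none fell against siControl (limma, adjusted p under 0.05 over all probe sets). They were the chaperone component Sdf2l1, the disulfide isomerase Pdia6, the secreted stress protein Manf and the degradation gene Derl3. The 4 are 12.1% of the list, where 4.82% of all genes rose and 4.67% fell. At an unadjusted p under 0.05, 13 of the 33 were higher and none lower, where 12.5% of all genes were higher and 12% lower. Of the 33 differences, 26 were above 0, with a median of 0.16 beside 0.01 over all genes. No gene of the list had groups that did not overlap, which 1.71% of all genes had. Once 18S entered the fit as a covariate limma called 0 of the 33 and 2.9% of all genes, and against siControl replicates 1 to 3 alone it called 0 of the 33 and 3.42% of all genes. The median differences were then both 0.12. Against siControl replicates 4 to 8 alone the same 4 genes and Hyou1, Dnajb11 and Creld2 rose, beside 3.77% of all genes higher and 6.32% lower.

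With siKeap1-2, 2 genes rose and 1 fell. The transcription factor Atf3 and the pseudokinase Trib3 rose, and Eif2ak3, which encodes PERK, fell. All genes gave 2.85% higher and 3.75% lower, and the 3 genes are 9.09% of the list, so the share is near the background. The median difference was 0.04, beside -0.01 over all genes, and 17 of 33 were above 0. No gene had groups without overlap, beside 1.41% of all genes. With 18S as a covariate limma called none of the 33 and 1.02% of all genes. Against siControl replicates 1 to 3 alone it called none of the 33 and 1.18% of all genes, and against replicates 4 to 8 alone none of the 33 and 9.37% of all genes. The comparisons of siKeap1-1 and of siKeap1-2 share the same 8 control livers, so their values below stand side by side and are not independent.

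**Figure D1:**
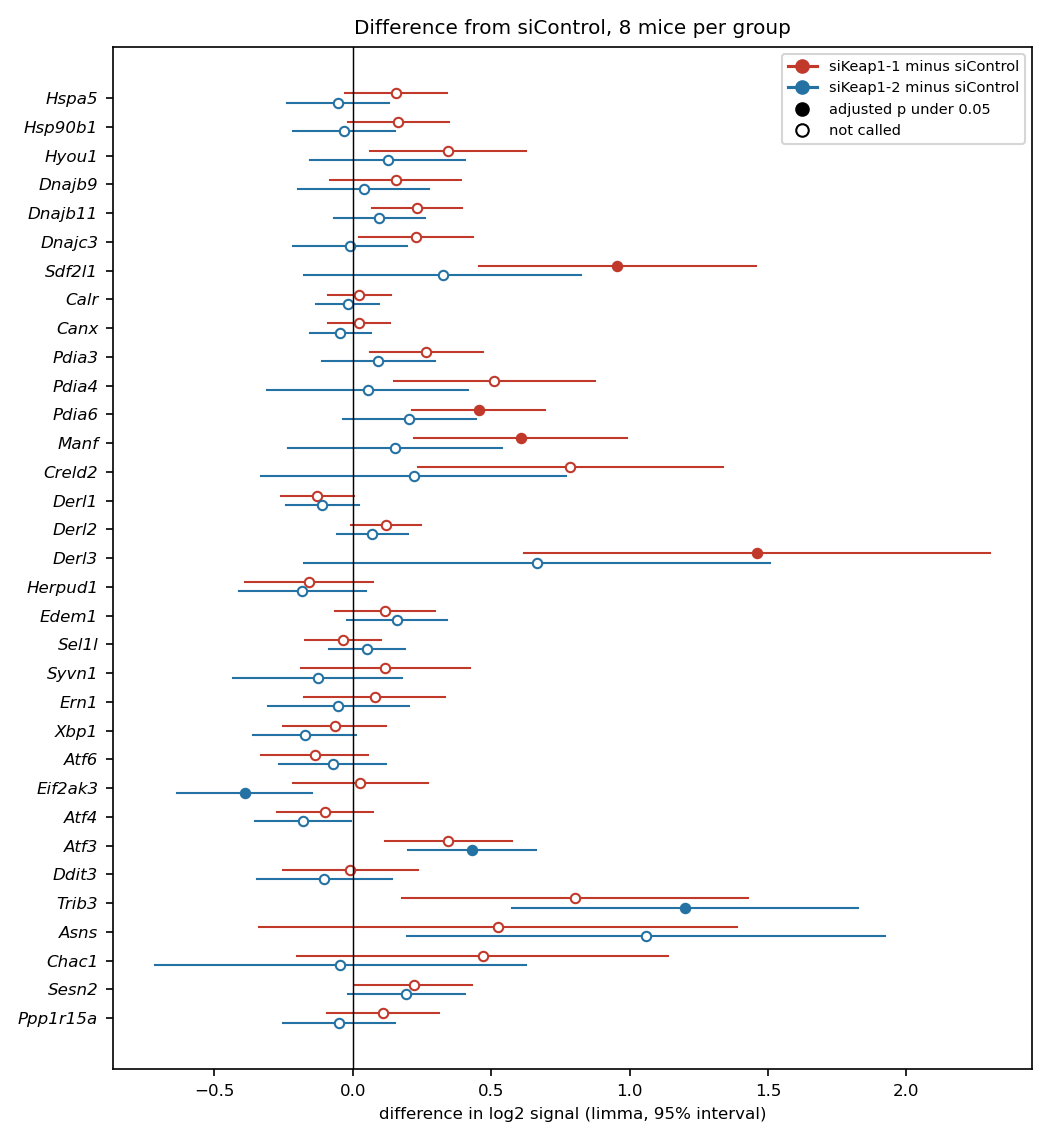
Difference from siControl in log2 signal for each of the 33 genes (x axis), for siKeap1-1 (red) and siKeap1-2 (blue), 8 mice per group. Points are limma estimates, lines are 95% intervals, and filled points have an adjusted p under 0.05: Sdf2l1, Pdia6, Manf and Derl3 for siKeap1-1, and Atf3, Trib3 and Eif2ak3 for siKeap1-2. With siKeap1-1 all 14 folding genes at the top lie above 0, between 0.02 and 0.96.

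Of the ER chaperones, Sdf2l1 had the largest difference and was the only called one. It encodes a small ER protein that works with the J proteins of BiP. Its signal was 7.39 to 9.27 (median 8.41) in siControl, 8.92 to 10.32 (median 9.25) in siKeap1-1 and 7.74 to 9.46 (median 8.75) in siKeap1-2. All 8 siKeap1-1 livers lay above the siControl median, 3 of them above the highest control, so the groups overlapped. Sdf2l1 was 1.94-fold higher with siKeap1-1, by 0.96 ± 0.24 on the log2 scale (limma, adjusted p = 0.0133). With siKeap1-2 the difference was 0.33 (95% interval -0.18 to 0.83, adjusted p = 0.492). With siControl replicates 1 to 3 alone the siKeap1-1 difference was 0.76 ± 0.32 (adjusted p = 0.217), and with 18S as a covariate 0.68 ± 0.33 (adjusted p = 0.324).

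Hspa5 encodes BiP, the central chaperone of the ER lumen and the usual marker of the response. It read 13.38 to 13.92 (median 13.50) in siControl, 13.48 to 13.95 (median 13.71) in siKeap1-1 and 13.20 to 13.76 (median 13.50) in siKeap1-2. The 3 groups overlapped over most of their range. The difference was 0.16 (95% interval -0.03 to 0.34) with siKeap1-1 and -0.05 (-0.24 to 0.13) with siKeap1-2, and neither was called. Hsp90b1, the ER form of HSP90, differed by 0.17 (-0.02 to 0.35) and -0.03 (-0.21 to 0.15) in its brightest probe set.

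Hyou1, which exchanges nucleotide on BiP, differed by 0.35 (95% interval 0.06 to 0.63, adjusted p = 0.119) with siKeap1-1 and by 0.13 (-0.15 to 0.41) with siKeap1-2. The J proteins bring substrates to BiP, and their differences with siKeap1-1 were 0.15 for Dnajb9, 0.23 for Dnajb11 (adjusted p = 0.0686) and 0.23 for Dnajc3. With siKeap1-2 they were 0.04, 0.10 and -0.01. None of these 4 genes was called in the brightest probe set. The lectin chaperones calreticulin (Calr) and calnexin (Canx), which hold glycoproteins until they are folded, had the smallest differences of the folding genes with siKeap1-1, both 0.02, and differed by -0.02 and -0.04 with siKeap1-2. Their 95% intervals all lay within -0.16 to 0.14. Calr and Canx averaged 13.68 and 13.08, both with an SD of 0.09 between mice of a group. Derl3, whose promoter holds the same element, averaged 7.94 with an SD of 0.88, so the widths of their intervals are not alike.

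The disulfide isomerases form and rearrange the disulfide bonds of secreted proteins. Pdia6 read 9.21 to 9.84 (median 9.56) in siControl, 9.76 to 10.67 (median 10.01) in siKeap1-1 and 9.40 to 10.10 (median 9.81) in siKeap1-2. Of the siKeap1-1 livers, 6 lay above the highest control, and of the siKeap1-2 livers, 4 did. Pdia6 was 1.37-fold higher with siKeap1-1, by 0.45 ± 0.12 (limma, adjusted p = 0.0137), and the difference with siKeap1-2 was 0.20 (-0.03 to 0.44, adjusted p = 0.333). Against siControl replicates 1 to 3 alone the first was 0.38 ± 0.16 (adjusted p = 0.229). Pdia4 differed by 0.51 ± 0.18 (adjusted p = 0.0711) and 0.05 ± 0.18. Pdia3, which acts on glycoproteins with the lectin chaperones, differed by 0.27 ± 0.10 (adjusted p = 0.0984) and 0.09 ± 0.10.

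Manf and Creld2 encode small ER proteins that are released from stressed cells. Manf read 10.52 to 11.70 (median 10.87) in siControl, 11.12 to 12.07 (median 11.55) in siKeap1-1 and 10.38 to 11.88 (median 11.04) in siKeap1-2. The groups overlapped, with 2 siKeap1-1 livers above the highest control, which was siControl replicate 2. Manf rose by 0.61 ± 0.19 with siKeap1-1 (limma, adjusted p = 0.0413), and differed by 0.15 ± 0.19 with siKeap1-2. Without siControl replicate 2 the siKeap1-1 difference was 0.72 ± 0.18 (adjusted p = 0.0118), and with siControl replicates 1 to 3 alone 0.57 ± 0.27 (adjusted p = 0.293). Creld2 read 9.68 to 11.50 in siControl and 10.43 to 11.85 in siKeap1-1, a difference of 0.79 ± 0.27 (adjusted p = 0.0665). With siKeap1-2 it read 9.55 to 11.59, and the difference was 0.22 ± 0.27.

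**Figure D2:**
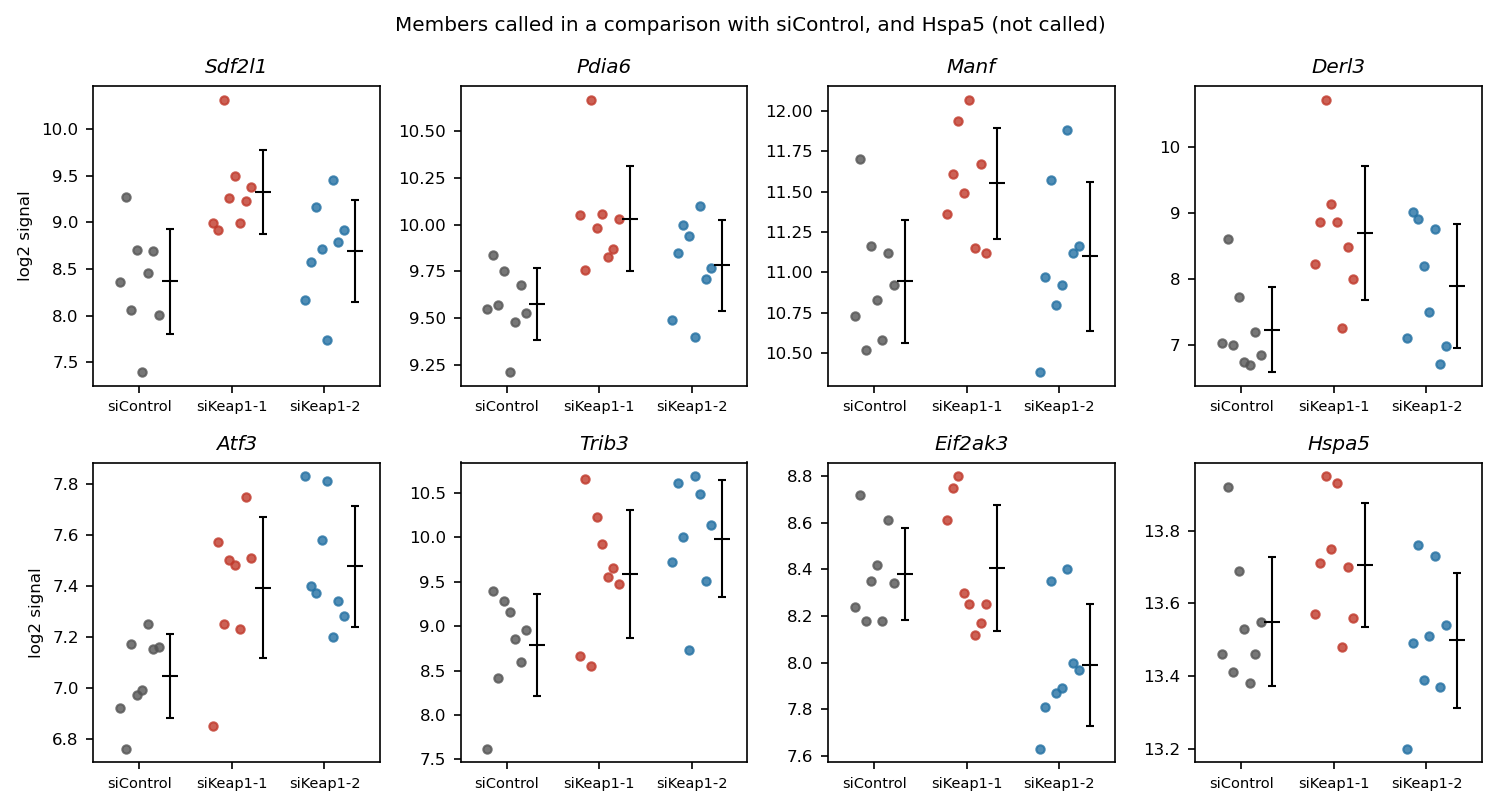
Log2 signal (y axis, a scale of its own per gene) of the 7 genes called in a comparison with siControl and of Hspa5, per mouse (points, 8 per group); the dash and bar beside each group are the mean and SD. The groups overlap for every gene, and 7 of 8 siKeap1-2 livers lie above the highest control for Atf3 and for Trib3.

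Of the 7 genes of ER-associated degradation, Derl3 alone was called, against siControl with siKeap1-1. The derlins form part of the channel through which misfolded proteins leave the ER, and Derl3 is a member known to be induced by stress. Derl3 read 6.69 to 8.61 (median 7.01) in siControl, 7.25 to 10.72 (median 8.67) in siKeap1-1 and 6.70 to 9.02 (median 7.84) in siKeap1-2. Of the siKeap1-1 livers, 4 lay above the highest control, and their lowest value lay above the control median. The siKeap1-1 difference was 1.46 ± 0.41, or 2.75-fold (limma, adjusted p = 0.0243), the largest of the list, and the siKeap1-2 difference was 0.66 (-0.18 to 1.51, adjusted p = 0.381). Between the siRNAs Derl3 differed by 0.80 (-0.05 to 1.64, adjusted p = 0.568). The siKeap1-1 difference against siControl replicates 1 to 3 alone was 1.15 ± 0.59 (adjusted p = 0.337).

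Derl1 and Derl2 belong to the same family, and their differences were small and of opposite sign in the brightest probe sets. Derl1 differed by -0.13 and -0.11, and Derl2 by 0.12 and 0.07, with siKeap1-1 and siKeap1-2 in that order. The ubiquitin ligase Syvn1 (HRD1) and its partner Sel1l, the core of the degradation complex, gave 0.12 and -0.04 with siKeap1-1 and -0.13 and 0.05 with siKeap1-2. Herpud1, which links that complex to the proteasome, gave -0.16 (-0.39 to 0.07) and -0.18 (-0.41 to 0.05). Edem1, which leads glycoproteins to degradation, gave 0.12 (-0.06 to 0.30) and 0.16 (-0.02 to 0.34).

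Of the 4 sensors and their factors, none rose in either comparison and 1 fell. Eif2ak3 (PERK) read 8.18 to 8.72 (median 8.35) in siControl, 8.12 to 8.80 (median 8.28) in siKeap1-1 and 7.63 to 8.40 (median 7.93) in siKeap1-2. Of the siKeap1-2 livers, 6 lay below the lowest control. Eif2ak3 fell by 0.39 ± 0.12 with siKeap1-2 (limma, adjusted p = 0.0491), 0.763 times the control signal, and differed by 0.03 ± 0.12 with siKeap1-1. The other probe sets of Eif2ak3, both dimmer, differed by 0.04 ± 0.20 and 0.05 ± 0.11 with siKeap1-2, and the mean over its 3 probe sets by -0.10. The call was lost under 11 of 18 alternatives, among them quantile normalization and leaving out siControl replicate 2 (-0.34 ± 0.12, adjusted p = 0.0814). With siControl replicates 1 to 3 alone the difference was -0.39 ± 0.17 (adjusted p = 0.384). Ern1 (IRE1) differed by 0.08 and -0.05, Xbp1 by -0.06 and -0.17, and Atf6 by -0.14 and -0.07, all with intervals that include 0.

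In the ATF4 branch, the transcription factors had only Atf3 among the called genes. Atf4 itself differed by -0.10 (-0.27 to 0.07) with siKeap1-1 and -0.18 (-0.35 to -0.0047, adjusted p = 0.229) with siKeap1-2. Ddit3 (CHOP), a factor of stress-induced cell death, differed by -0.01 (-0.25 to 0.24) and -0.10 (-0.35 to 0.14). Atf3, a stress-induced repressor and ATF4 target, read 6.76 to 7.25 (median 7.07) in siControl, 6.85 to 7.75 (median 7.49) in siKeap1-1 and 7.20 to 7.83 (median 7.39) in siKeap1-2. Above the highest control lay 5 siKeap1-1 and 7 siKeap1-2 livers. Atf3 rose by 0.43 ± 0.11 with siKeap1-2 (limma, adjusted p = 0.0219) and differed by 0.35 ± 0.11 with siKeap1-1 (adjusted p = 0.0531). With siControl replicates 1 to 3 alone the siKeap1-2 difference was 0.53 ± 0.16 (adjusted p = 0.168), and with siControl replicates 4 to 8 alone 0.37 ± 0.13 (adjusted p = 0.0732).

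Trib3 encodes a pseudokinase that ATF4 and CHOP induce and that binds ATF4. It read 7.62 to 9.40 (median 8.91) in siControl, 8.55 to 10.66 (median 9.60) in siKeap1-1 and 8.73 to 10.69 (median 10.07) in siKeap1-2. Above the highest control lay 6 siKeap1-1 and 7 siKeap1-2 livers. Trib3 was 2.30-fold higher with siKeap1-2, by 1.20 ± 0.30 (limma, adjusted p = 0.0184), and differed by 0.80 ± 0.30 with siKeap1-1 (adjusted p = 0.103). With siControl replicates 1 to 3 alone the siKeap1-2 difference was 1.51 ± 0.44 (adjusted p = 0.141), and with siControl replicates 4 to 8 alone 1.02 ± 0.32 (adjusted p = 0.0509).

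Asparagine synthetase (Asns), which ATF4 raises when amino acids are short, had the widest spread between mice of a group among the 33 genes, with an SD of 0.91 beside a median of 0.19 over all genes. It read 8.05 to 11.61 (median 10.22) in siControl, 8.78 to 11.70 (median 10.52) in siKeap1-1 and 10.31 to 11.99 (median 10.87) in siKeap1-2. The lowest siKeap1-2 liver lay above the siControl median, and the groups still overlapped. The differences were 0.52 (-0.34 to 1.39) with siKeap1-1 and 1.06 (0.20 to 1.92, adjusted p = 0.139) with siKeap1-2. Chac1, which degrades glutathione, differed by 0.47 (-0.20 to 1.14) and -0.05 (-0.72 to 0.62). Sesn2, which restrains mTORC1 signalling and is a target of both ATF4 and Nrf2, differed by 0.22 (0.01 to 0.43, adjusted p = 0.196) and 0.19 (-0.02 to 0.40) in its brightest probe set. Ppp1r15a (GADD34), which restores translation after PERK has acted, differed by 0.11 and -0.05.

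Between siKeap1-1 and siKeap1-2, limma called none of the 33 genes, where 0.121% of all genes were higher with siKeap1-1 and 0.121% lower. At an unadjusted p under 0.05, 9 genes were higher with siKeap1-1 and none lower, beside 6.33% and 2.96% of all genes. They were Hspa5, Hsp90b1, Dnajc3, Sdf2l1, Pdia4, Pdia6, Manf, Creld2 and Eif2ak3. All 9 have an adjusted p of 0.202 or more. The smallest was that of Eif2ak3, with a difference of 0.42 (0.17 to 0.66), and Sdf2l1 followed with 0.63 (0.13 to 1.13, adjusted p = 0.39). Hspa5 differed by 0.21 (0.02 to 0.39, adjusted p = 0.466). Over the list, 26 of 33 differences were above 0, with a median of 0.13 beside 0.02 over all genes. No gene had groups without overlap, as had 0.214% of all genes. The difference itself comes from the 16 livers of the Keap1 siRNA groups, and the control livers enter only the shared estimate of the spread. The ATF4 targets gave no common direction, with -0.54 (-1.40 to 0.33) for Asns, -0.40 (-1.02 to 0.23) for Trib3 and 0.52 (-0.15 to 1.19) for Chac1. That a call was made against siControl with a single siRNA therefore does not show that the siRNAs differed for these genes.

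**Figure D3:**
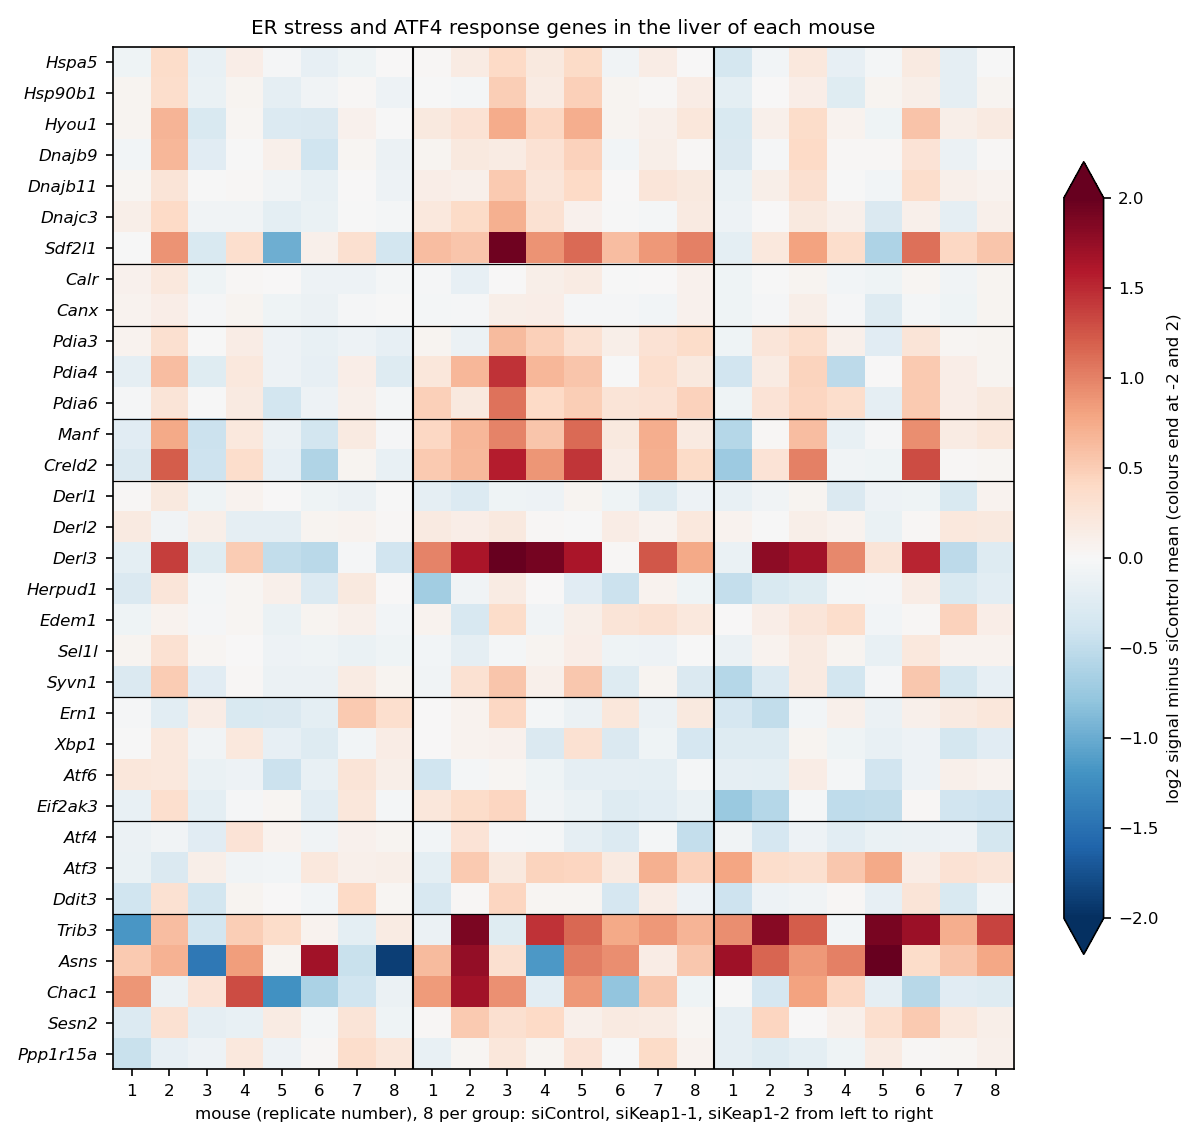
Log2 signal of the 33 genes (rows, grouped by role with lines between roles) in each of the 24 mice (columns, 8 per group), as the difference from the siControl mean of the gene, with colours that end at -2 and 2. Single mice are high in many folding genes at once, such as siControl replicate 2, siKeap1-1 replicate 3 and siKeap1-2 replicate 6. Asns is highest in other mice of each group.

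Mice of the same group differed in the folding genes together. The mean log2 signal of the 14 folding genes (chaperones, isomerases, Manf and Creld2) was 11.18 to 11.88 in siControl, 11.46 to 12.14 in siKeap1-1 and 11.11 to 11.82 in siKeap1-2. A single liver, siControl replicate 2, had the highest control value in 22 of the 33 genes. In siKeap1-1 replicate 3 was highest in 18 genes, and in siKeap1-2 replicate 6 in 13. The signal of Fasn, a lipogenic gene that follows feeding, was lowest of the controls in siControl replicate 2 (11.05) and at the highest value of its group in siKeap1-1 replicate 3 (12.20). The same Fasn value was read in siKeap1-1 replicate 6, whose mean of the folding genes (11.46) was the lowest of its group. In siKeap1-2 replicate 6 Fasn was 10.59, in a group that ran from 9.67 to 12.62. Igfbp1 and Angptl4, read beside Fasn, were highest of the controls in siControl replicate 2 (13.98 and 12.72). They were 13.14 and 12.09 in siKeap1-1 replicate 3, and 13.41 and 12.54 in siKeap1-2 replicate 6, where Angptl4 was highest of its group. The next highest folding means were 11.49, 11.92 and 11.76, in siControl replicate 4, siKeap1-1 replicate 5 and siKeap1-2 replicate 3. Fasn was 11.50, 10.36 and 10.11 there, and 10.34 in siKeap1-2 replicate 5 with a mean of 11.23. The feeding state of these mice is not in the labels, and its part in the spread was not tested. Without siControl replicate 2, siKeap1-1 raised 9 of the 33 genes in place of 4, the additional ones being Hyou1, Dnajb11, Pdia3, Pdia4 and Creld2, and 4.55% of all genes rose and 5.56% fell. This setting was chosen after the values were seen.

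Once the group means were removed, the 14 folding genes correlated with each other over the 24 mice with a median Pearson r of 0.70 over 91 pairs (0.35 to 0.96). The median Spearman rho was 0.64. The highest r was that of Manf with Creld2 (0.956), and Creld2 with Hspa5 gave 0.953. Without siControl replicate 2 and siKeap1-1 replicate 3 the median was 0.59, and within siControl, siKeap1-1 and siKeap1-2 alone it was 0.81, 0.65 and 0.78. All genes of a mouse share a liver, an array and its normalization, so these values are a description. Among the 5 ATF4 targets the median r was 0.05 over 10 pairs (-0.30 to 0.56), and between folding genes and ATF4 targets it was 0.12 over 70 pairs. The r of Ddit3 ran from 0.229 (Calr) to 0.728 (Manf) with the folding genes. With the degradation genes it ran from -0.291 (Derl2) to 0.815 (Herpud1), and with the ATF4 targets from -0.11 (Asns) to 0.647 (Sesn2). Atf3 had r = -0.327 with Hspa5.

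**Figure D4:**
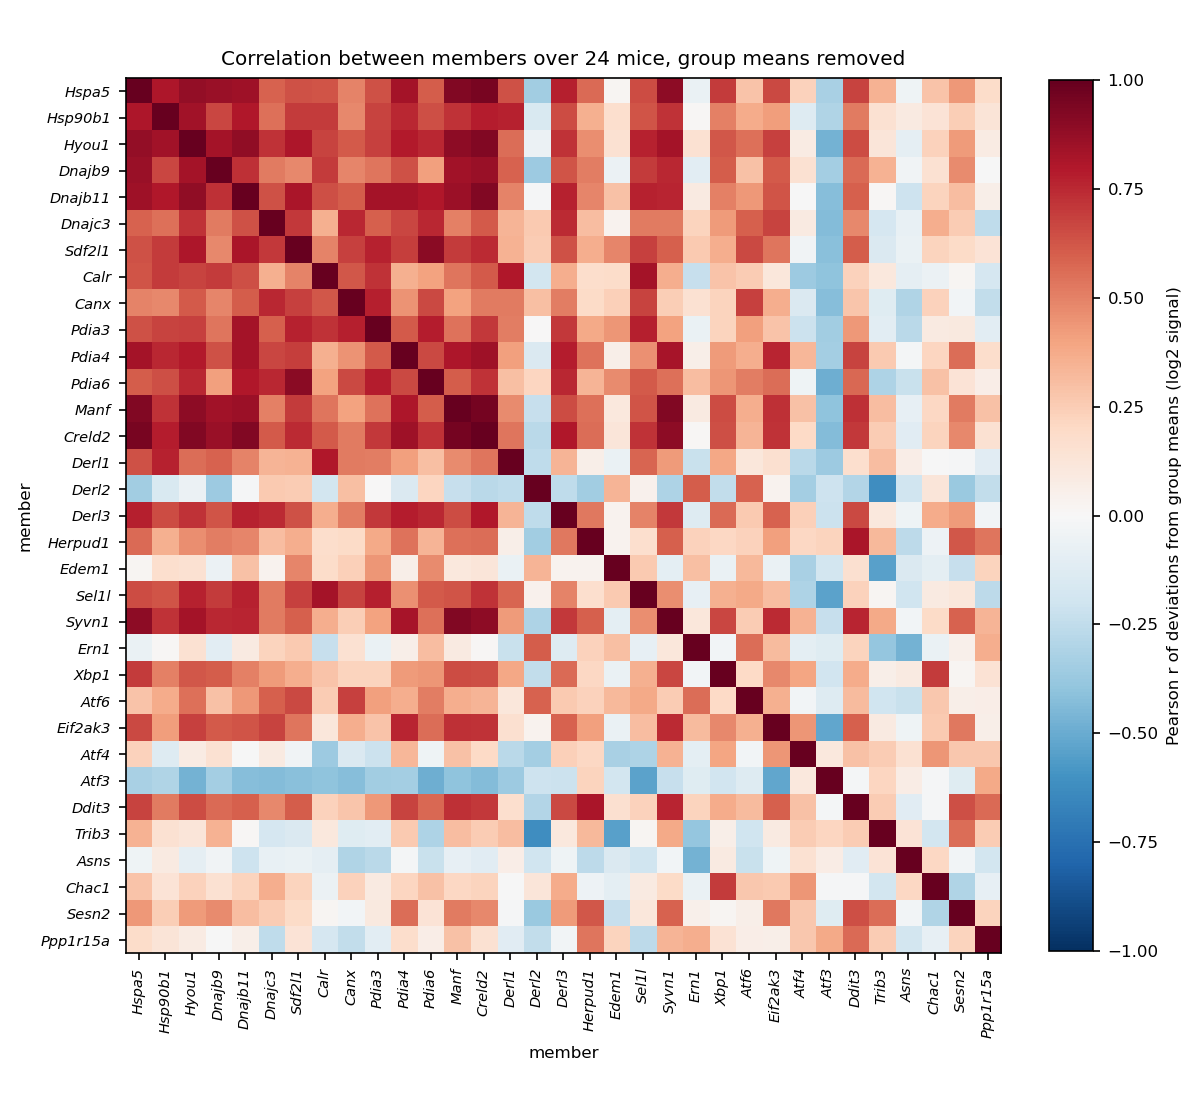
Pearson correlation between each pair of the 33 genes over 24 mice, after the mean of each group was removed from the log2 signal (red positive, blue negative). The block of folding genes at the upper left has r between 0.35 and 0.96, while Asns, Trib3, Chac1 and Atf3 show weak or negative values with it.

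Of the 33 genes, 24 have more than 1 probe set, and some of the 44 other probe sets gave another answer. With siKeap1-1, 7 of the 44 were called, with siKeap1-2 5, and between the siRNAs 0. Of all genes, by their brightest probe set, 9.49%, 6.6% and 0.242% were called in these comparisons. The share over all probe sets was not counted, so the 44 have no direct background. The second probe set of Hsp90b1, 1438040_a_at, read 10.80 to 12.41 in siControl, 11.69 to 12.52 in siKeap1-1 and 12.09 to 12.47 in siKeap1-2. It was higher by 0.86 ± 0.20 and 0.89 ± 0.20 (limma, adjusted p = 0.00685 and 0.00784), where the brightest probe set gave 0.17 and -0.03. With siControl replicates 1 to 3 as controls the differences were 0.12 ± 0.16 and 0.15 ± 0.16, with replicates 4 to 8 they were 1.30 ± 0.12 and 1.33 ± 0.12, and with 18S as a covariate 0.02 and 0.08. So this probe set separated the parts of the control group, as 18S did.

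For Dnajc3, the probe set 1449372_at was higher by 0.75 ± 0.12 and 0.68 ± 0.12 (adjusted p = 0.000352 and 0.00151), and by 0.44 ± 0.15 and 0.37 ± 0.15 with siControl replicates 1 to 3 alone (adjusted p = 0.12 and 0.329). A further pair of Dnajc3 probe sets, 1419162_s_at and 1419163_s_at, rose with siKeap1-1 by 0.36 ± 0.09 and 0.46 ± 0.13. Against siControl replicates 1 to 3 alone these differences were 0.30 ± 0.12 and 0.28 ± 0.18 (adjusted p = 0.219 and 0.434). The dim probe set 1425139_at of Sesn2 read 4.41 to 5.08 in siControl, 4.98 to 5.67 in siKeap1-1 and 4.97 to 5.62 in siKeap1-2. It was higher by 0.63 ± 0.11 and 0.66 ± 0.11 (adjusted p = 0.000795 and 0.000811), and by 0.54 ± 0.16 and 0.58 ± 0.16 with siControl replicates 1 to 3 alone (adjusted p = 0.0685 and 0.115). Which probe set of a gene follows the level of its mRNA was not tested.

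A further 4 probe sets were called. With siKeap1-1, 1445330_at of Pdia3 rose by 0.51 ± 0.15 (limma, adjusted p = 0.0342) and 1453559_a_at of Sel1l by 0.26 ± 0.07 (adjusted p = 0.0132). With siKeap1-2, 1423082_at of Derl1 rose by 0.24 ± 0.07 (adjusted p = 0.0306), against -0.11 in the brightest probe set. The second probe set of Trib3 followed its brightest one, with 1.26 ± 0.33 (adjusted p = 0.0222) in siKeap1-2. None of these 4 calls held against siControl replicates 1 to 3 alone, where the differences were 0.33 ± 0.21 for Pdia3, 0.30 ± 0.10 for Sel1l, 0.21 ± 0.10 for Derl1 and 1.57 ± 0.47 for Trib3 (adjusted p = 0.457, 0.0967, 0.416 and 0.151). Averaging the probe sets of each gene gave 11 of the 33 genes higher with siKeap1-1, beside 5.74% of all genes, and 4 higher with siKeap1-2, beside 3.6%.

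**Figure D5:**
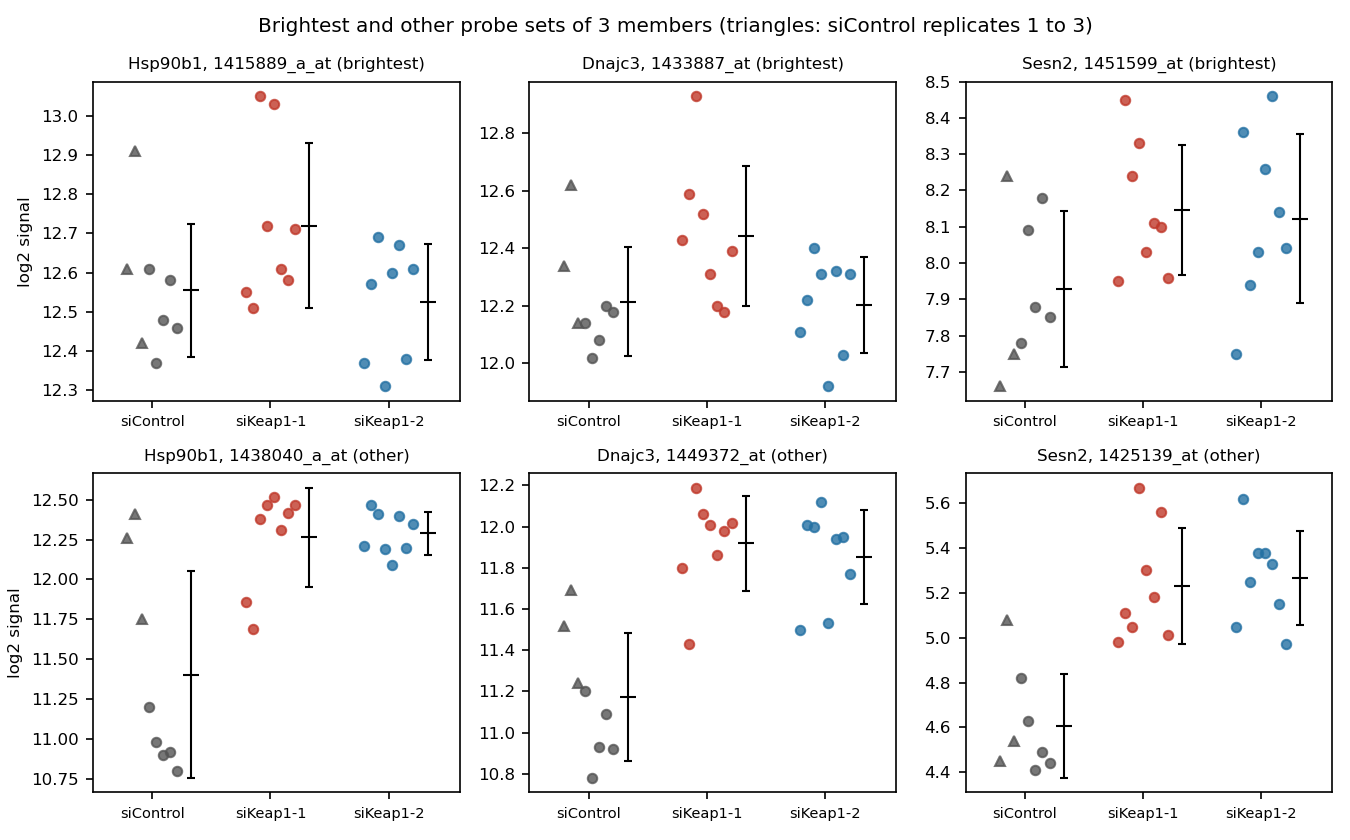
Log2 signal (y axis, a scale of its own per panel) of the brightest and another probe set of Hsp90b1, Dnajc3 and Sesn2 per mouse; triangles are siControl replicates 1 to 3, and the dash and bar are mean and SD (n = 8). In 1438040_a_at of Hsp90b1, siControl replicates 4 to 8 all lie at or below 11.20 and every other mouse lies at or above 11.69.

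Genes around the 33 in the same pathways were read from lists of other folding, translocation, degradation, sensor and ATF4 target genes, of which 152 were measured. The totals below count the 150 of these found under their listed symbols, and the counts per list hold all 152. With siKeap1-1, 21 of the 150 rose and 7 fell (18.7%), and with siKeap1-2, 5 rose and 3 fell (5.33%), beside 9.49% and 6.6% of all genes in either direction. With 18S as a covariate, 5 rose and 3 fell with siKeap1-1 (5.33%, beside 2.9% of all genes), and the same counts came against siControl replicates 1 to 3 alone (beside 3.42%). Of the genes named below, Fkbp14, Sec61a2, Spcs3, Srpr, Ubxn4, Slc6a9 and Eif4ebp1 kept their siKeap1-1 call against those 3 controls and the others named lost it. With siKeap1-2, none of the 150 rose and 1 fell against those controls, Fkbp14 (0.667%, beside 1.18% of all genes). Among 38 folding and oxidation genes, siKeap1-1 raised 8 and lowered 2. Hspa13 rose by 0.48 ± 0.10, Ddost, a subunit of the oligosaccharyl transferase, by 0.33 ± 0.07, and Uggt1, the glycoprotein folding sensor, by 0.31 ± 0.10. The prolyl isomerase Fkbp14 fell by 0.69 ± 0.11, and by 0.71 ± 0.11 with siKeap1-2 (limma, adjusted p = 0.000134 and 0.000168).

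Of 23 genes of translocation into the ER and signal peptide removal, siKeap1-1 raised 6 and lowered 2. Srprb, of the signal recognition particle receptor, rose by 0.34, and Spcs3, of the signal peptidase, by 0.32. Srpr, the other subunit of that receptor, fell by 0.35, and was lower than with siKeap1-2 by 0.29, the only called gene of these lists between the siRNAs. The translocon gene Sec61a2 fell by 0.52 and, with siKeap1-2, by 0.35. In the degradation list, 3 of 26 genes rose with siKeap1-1, namely Edem2 (0.38), Ubxn4 (0.25) and Ube2j1 (0.22), and Edem2 and Ubxn4 were also called with siKeap1-2 (0.40 and 0.18).

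Of 19 other sensors and regulators, the pro-apoptotic Bak1 rose by 0.30 and Mbtps1, the protease that cuts ATF6, fell by 0.18 with siKeap1-1, and none was called with siKeap1-2. Of 46 other ATF4 targets, 3 rose and 2 fell with siKeap1-1. The glycine transporter Slc6a9 rose by 0.57 ± 0.09 with siKeap1-1 and by 0.51 ± 0.09 with siKeap1-2, and the translation repressor Eif4ebp1 rose by 0.31 ± 0.09 with siKeap1-1. Vegfa fell by 0.41 ± 0.09 and by 0.54 ± 0.09, and Cbs, which makes cystathionine, fell by 0.46 ± 0.09 with siKeap1-1. Against siControl replicates 1 to 3 alone Eif4ebp1 rose by 0.49 and Cbs differed by -0.30 (adjusted p = 0.028 and 0.226). The called share of the 46 was 10.9% with siKeap1-1 and 4.35% with siKeap1-2, beside 9.49% and 6.6% of all genes. Calls went in both directions in the list and over all genes, so the list stood near the background.

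Several of the folding genes are also abundant in plasma cells and in pancreatic acinar cells, both of which secrete heavily. Of 11 plasma and B cell markers, 2 were lower and none higher with siKeap1-1, Jchain by 0.71 and Mzb1 by 0.59. Against siControl replicates 1 to 3 alone Jchain differed by -0.74 and Mzb1 by -0.28 (limma, adjusted p = 0.0977 and 0.449). The mean log2 signal of the 11 was 6.46 to 7.26 in siControl, 6.42 to 6.77 in siKeap1-1 and 6.56 to 7.00 in siKeap1-2. Of 4 acinar markers, Cpa1 rose by 0.31 from a control mean of 4.93 and Cela1 differed by -0.18, and against siControl replicates 1 to 3 alone Cpa1 differed by 0.15 (adjusted p = 0.555). Of 12 Kupffer cell and macrophage markers, Vsig4, Timd4 and Cd163 fell with siKeap1-1, and with siKeap1-2 Marco rose and Timd4 fell, while the defining Clec4f and Cd5l were not called. Of 5 cholangiocyte markers Sox9 rose with both siRNAs, of 8 endothelial markers Cdh5 fell by 0.32 with siKeap1-2 (-0.11 against siControl replicates 1 to 3 alone), and of 9 stellate cell markers none was called. Timd4 and Cd163 with siKeap1-1 and Sox9 with both siRNAs kept their calls against siControl replicates 1 to 3 alone, and the calls of Vsig4, Marco, Cdh5 and, with siKeap1-2, Timd4 were lost. Of 18 genes known to follow feeding, Pnpla3 and Elovl6 fell with both siRNAs and Ppargc1a with siKeap1-1, and none of these calls held against those 3 controls alone. The part of these cells and of feeding in the differences was not tested.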

How the data were processed

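Total RNA of 24 livers was hybridised to Affymetrix mouse whole genome arrays, 1 array per mouse and 8 per siRNA group. The authors summarised the arrays with RMA (version not given in the sources used here) and deposited log2 values, background corrected and brought to nearly the same distribution across arrays, which compresses large differences and sets any overall shift to 0. From these, 64 manufacturer control probe sets were left out and 45037 were tested. Platform annotation gave 34945 of them 1 gene, 932 several and 9160 none. Groups were taken from the sample labels. The number of arrays limits the precision, and each array is 1 mouse.

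A single limma fit (limma 3.58.1, R 4.3.3) of the 3 groups gave differences with SE and 95% intervals, and p-values were adjusted by Benjamini-Hochberg over all 45037 probe sets, with calls at an adjusted p under 0.05. It was tested on simulated data. The 33 genes, the other lists and the tests were chosen with earlier results of these data known. All 33 genes are described by role. Of each other pathway list and each marker list, up to 4 called genes with the largest absolute log2 difference against siControl are named, together with Keap1, Nqo1, the defining markers and those other probe sets of the 33 genes that were called. Mice of the same replicate number were not treated as pairs in the main fit. Correlations of deviations from the group means between mice of the same number ran from -0.171 to 0.28. They were not compared with those between mice of different numbers, so they cannot show whether the numbers pair the mice. Motifs were counted in RefSeq windows and plots drawn with Python 3.11.15 and matplotlib 3.10.9. Alternatives were other normalizations, filters, covariates, control subsets, probe set rules and thresholds. Leaving out siControl replicate 2, siKeap1-1 replicate 3 or both was added after the data were seen.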

Additional observations from a re-analysis of the deposited data

Results flagged for a closer look

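For 8 of 99 sets of values (33 genes in 3 groups of 8 mice), a single mouse lay farther from the rest of its group than Dixon's 95% critical value of 0.526 allows, and chance alone flags about 1 in 20. In siControl replicate 2, the signal of Hsp90b1 was 12.91, of Hyou1 12.04, of Dnajb9 13.32, of Dnajb11 11.06 and of Sel1l 13.03, each the highest of the 8 controls. The next control value was 12.61, 11.45, 12.76, 10.84 and 12.78 in that order. In siKeap1-1 replicate 3, the signal of Sdf2l1 was 10.32, of Pdia4 9.75 and of Pdia6 10.67, where the next value of that group was 9.50, 8.96 and 10.06. All 8 values belong to chaperones, isomerases or the degradation gene Sel1l, and none to a gene of the ATF4 branch. No gene had all livers of the 2 Keap1 siRNA groups on opposite sides of the siControl mean.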

How the results depend on the processing

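The count of genes called of the 33 with siKeap1-1 was 4 and changed to 8 with dim probe sets left out, 7 with the first residual component (16.9% of the residual variance) as a covariate, 0 with 18S as a covariate, 0 with siControl replicates 1 to 3 as controls, 7 with replicates 4 to 8 as controls, 11 with the mean over probe sets, 0 at an adjusted p under 0.01, and 1 (Derl3) at a fold over 2 and an unadjusted p under 0.01. Leaving out siControl replicate 2 or siKeap1-1 replicate 3 gave 5 to 9, and leaving out both gave 8. The highest count of the former, 9, came without siControl replicate 2, and without siKeap1-1 replicate 3 the call of Manf was lost. With siKeap1-2 the count was 3 and became 0 with 18S as a covariate, with siControl replicates 1 to 3, with siControl replicates 4 to 8 and at an adjusted p under 0.01, and 1 (Trib3) at a fold over 2. Between the siRNAs it was 0 in limma under all 16 alternatives run. With 3 or 5 controls fewer livers enter, and 18S and the groups are partly confounded. Shares of all genes called were counted for the control subsets, 18S, the replicate block and the mean over probe sets. They were also counted without siControl replicate 2. For the other alternatives they were not, so those counts cannot be set beside a background. With the replicate number as a block, siKeap1-1 gave 4 calls (Manf lost, Trib3 gained) and siKeap1-2 gave 2 (Eif2ak3 lost), beside 9.76% and 6.48% of all genes. Over 594 values of single genes and alternatives in each comparison with siControl, 17 calls were lost and 31 gained with siKeap1-1, and 20 lost and 1 gained with siKeap1-2. Besides these, a single difference reversed, that of Hsp90b1 with siKeap1-2, which was 0.43 (limma, adjusted p = 0.0437) in the mean over probe sets and -0.03 in the brightest probe set. In 0 of 528 values did a call change between the siRNAs. The cause of these changes was not tested.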
